A study of Triticum aestivum with 122 samples.

Results

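The 150 genes described here are those whose transcripts rose together along the largest axis of difference between wheat heads of the same treatment group. They were chosen from the measured values themselves. In 58 floret libraries, 24204 of the 55577 entries of the expression table had a mean of at least 50 normalized counts. Each of these was expressed as its deviation from its group mean on a log2(value + 1) scale, and the first principal component of the deviations gave every head a score. The 150 entries with the highest Pearson r between deviation and score are the members, each a different gene. The score is given in units of its standard deviation (SD) over the 58 libraries, and it is called the head axis score.

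The samples were unemerged heads of bread wheat (Triticum aestivum) of the cultivar Vida, with no transgene or mutation. During 48 h of germination the seeds received the brassinosteroid 2,4-epibrassinolide (EBR) at 1 µM, or dimethyl sulfoxide (DMSO) at 1 µM as the control. All plants were kept at 22 °C and a light period of 16 h until the tetrad stage, when part of the pots of either seed treatment was moved to constant 29 °C and the others stayed at 22 °C. Heads were taken at 0 h, before the move, and at 8, 16 and 24 h after it, and were dissected into floret and rachis for poly(A) RNA sequencing. The 32 combinations of tissue, seed, temperature and hour hold 2 to 4 libraries each, called biological replicates in the labels. At 0 h the label 29 °C marks pots that were still at 22 °C.

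The florets of a head hold the anthers, and at the tetrad stage the products of meiosis in the anther are still held together before they separate as young microspores. The rachis is the stem-like axis of the head and carries the spikelets. The reproductive tissues of cereals are known to be sensitive to high temperature at this stage. Brassinosteroids are plant steroid hormones that act through a receptor kinase at the cell surface, and they promote cell elongation and male fertility. Bread wheat carries A, B and D subgenomes, so that many genes have related copies on the matching chromosomes. Copies of this kind can share reads, and the sources used here do not say how such reads were divided. None of the 53798 gene IDs of the table matched a name in the annotation used here, so members are given by ID and no role is assigned to any of them.

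Libraries held 14.5 to 21.8 M whole reads over the entries in the floret and 10.6 to 18.2 M in the rachis, with medians of 17.4 M and 14.7 M. Without gene names, the tissue labels could not be checked against markers, and each library was set against the mean profiles of the tissues instead. In 3 plants the library labelled floret was less floret-like than the library labelled rachis, against 0 of the 56 other plants with both tissues. These plants are replicate 3 of EBR seed at 22 °C and 16 h and replicate 1 of DMSO seed at 0 h in both temperature groups. Their floret libraries took no part in the choice of members, and the calls that rest on them are given below with and without them. Counts of members whose groups do not overlap are given only with them. Apart from these plants, 2 floret libraries were closer to the rachis profile: replicates 3 and 4 of DMSO heads after 24 h at 29 °C, the group with the highest level of the members. Likewise 5 rachis libraries were closer to the floret profile: both of EBR heads at 22 °C and 8 h, the group with the lowest level, replicates 3 and 4 of DMSO heads at 22 °C and 8 h, and replicate 1 of DMSO heads at 29 °C and 8 h. The levels of the members in them were 2.26 and 2.22 in the floret libraries and -1.83 to -1.15 in the rachis libraries, as log2 deviations from the tissue mean. The part of this in the results was not tested.

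The first component held 44.7% of the floret variation within groups, against 9.94% for the next. The r of the members with the score, which chose them, ran from 0.970 for TraesCS1B03G0200900.1 and 0.964 for TraesCS1D03G0602700.1 down to 0.911 for TraesCS3A03G1226500.1 and 0.9103 for TraesCS2D03G0604500.1. The first entry outside the list had an r of 0.9102, so the boundary is not a gap. The score was signed to rise with the number of entries above 0 in a library (r = 0.373, and 0.729 as deviations from group means, over 58 libraries that share depth differences). Its r with the deviation in log2 reads was -0.263.

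The members were spread over the genome that the table covers. They lay on all chromosomes from 1A to 5D, with 5 on chromosome 1B as the fewest and 16 on 2D as the most. Subgenome A held 53 of them, B 45 and D 52, and the shares among all entries with a mean of at least 50 were 34.0%, 33.4% and 32.6%. Only 4 members stood beside another member in the order of IDs. In the outer 20% of the ID order of a chromosome, counted from both ends, lay 13.3% of the members and 16.9% of all such entries.

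Members differed widely in how far they moved. The floret slope per SD of the score, a quantity the choice depends on, ran from 0.18 to 1.78 log2 with a median of 0.50. The SD within groups had a median of 0.62 log2, against 0.20 for all entries with a mean of at least 50. In the 4 DMSO heads at 22 °C and 24 h, the highest head exceeded the lowest by a factor of 1.75 to 373 (median 4.48). The factor is that of normalized counts with 1 added to each, which matters where the lowest value is small. Mean floret values of the members lay between 50.8 and 3873 normalized counts, which are not corrected for gene length. The median was 370, against 255 for all entries with a mean of at least 50.

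Single heads of the same group show what the axis looks like. TraesCS1B03G0200900.1, on chromosome 1B, had 603, 27.1, 1054 and 749 normalized counts in the florets of DMSO heads at 22 °C and 24 h. TraesCS1D03G0602700.1, on chromosome 1D, had 364, 39.2, 386 and 290 in the same heads. TraesCS2A03G1118900.1, on chromosome 2A, had 12755, 396, 7029 and 5639. Replicate 2 was the low head for all of these, and it had the lowest score of all 58 libraries at -2.96. TraesCS2D03G0245100.1, on chromosome 2D, is a shallower member and had 543, 216, 478 and 494, with the same head lowest.

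The rachis was not used to choose the members, and it shows the same heads. Each member's rachis value was regressed on the floret score of the same plant within groups, over 56 plants. All 150 members had a positive slope at an adjusted p under 0.05 (limma with Benjamini-Hochberg adjustment over all entries tested). Of all entries tested, 33.5% had such a slope, and of the entries with a floret mean of at least 50, 31.3% had it. The rachis slopes ran from 0.10 to 1.22 log2 per SD with a median of 0.38, and the median slope of all entries tested was 0.02. Within groups, the r of the members' rachis values with the floret score ran from 0.40 to 0.94 with a median of 0.83. Floret and rachis were cut from the same head, so this compares tissues of these plants and not further plants. Leaving out a replicate number kept 146 to 150 members called.

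**Figure D1:**
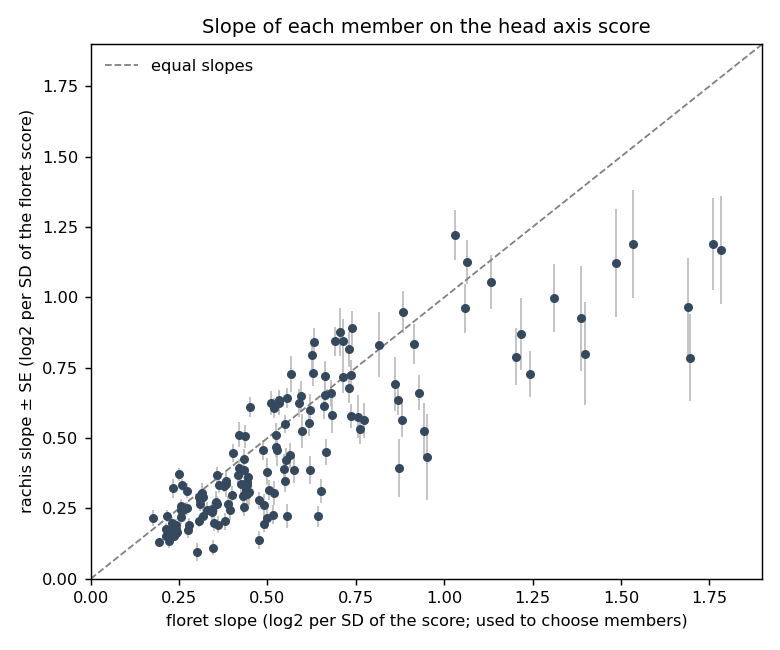
Slope of each of the 150 members on the head axis score, in the floret (x axis, log2 per SD, used in choosing the members) and in the rachis (y axis, log2 per SD of the floret score of the same plant, bars give the standard error). All rachis slopes lie above 0, between 0.10 and 1.22, and the members with the largest floret slopes lie below the dashed line of equal slopes.

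The steepest members in the rachis were TraesCS2A03G1118900.1, with a slope of 1.22 (SE 0.0890, adjusted p = 4.8e-15), and TraesCS4B03G0592200.1 on chromosome 4B, with 1.19 (SE 0.192, adjusted p = 1.1e-06), both from limma. The normalized counts of TraesCS2A03G1118900.1 ran from 57.4 to 26327 in the floret (median 606, 58 libraries) and from 55.7 to 17729 in the rachis (median 1273, 57 libraries). Those of TraesCS4B03G0592200.1 ran from 0 to 2913 in the floret (median 8.64) and from 0 to 482 in the rachis (median 4.79). It was at 0 in 4 floret and 10 rachis libraries.

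The shallowest rachis slopes were 0.11 for TraesCS2D03G0245100.1 (SE 0.0257, limma adjusted p = 2.9e-04) and 0.10 for TraesCS1B03G0670600.1 on chromosome 1B (SE 0.0326, limma adjusted p = 0.011). The rachis values of TraesCS2D03G0245100.1 stayed between 167 and 475 normalized counts (median 264), against 134 to 724 in the floret (median 307). Those of TraesCS1B03G0670600.1 stayed between 215 and 642 (median 397), against 290 to 1123 in the floret (median 490). The call of TraesCS2D03G0245100.1 ended without replicate 2, with an adjusted p of 0.056, and that of TraesCS1B03G0670600.1 ended without replicates 2, 3 or 4. Over all its alternatives the adjusted p of TraesCS1B03G0670600.1 ran from 9.8e-04 to 0.18.

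**Figure D2:**
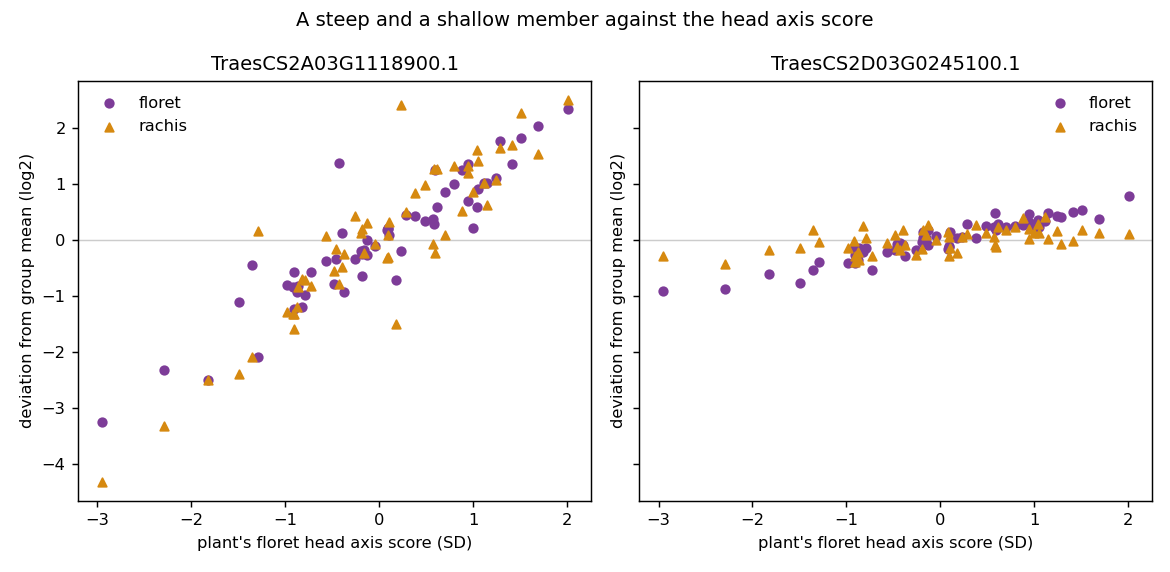
Deviation from the group mean (log2, y axis) of TraesCS2A03G1118900.1 and TraesCS2D03G0245100.1 against the plant's floret head axis score (SD, x axis), with 1 point per library, circles for floret and triangles for rachis. Both tissues of TraesCS2A03G1118900.1 rise steeply with the score, and the rachis slope of TraesCS2D03G0245100.1 is 0.11 log2 per SD.

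Across members, rachis and floret slopes had a Pearson r of 0.844 (150 genes, which are not independent and share their plants). Deviations within groups were correlated between members in both tissues. The median r over the 11175 pairs of members was 0.881 in the floret, where the choice fixes it, and 0.763 in the rachis. In the rachis 11171 pairs had an r above 0, and the range was -0.106 to 0.990. The members thus carry largely shared information, and counts of members below are not counts of independent events.

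Group means of the members differed with seed treatment, temperature and time. The levels in this paragraph are the mean over the 150 members of the log2 value, as a deviation from the tissue mean, without the 3 plants named above. In florets kept at 22 °C after DMSO seed the level was -0.80, -0.90, 0.36 and 1.08 at 0, 8, 16 and 24 h. After EBR seed at 22 °C it was -0.09, -1.48, -0.28 and -0.06 at the same times. At 29 °C after DMSO seed it was 0.12 before the move, then -0.53, -0.43 and 2.19, and after EBR seed -0.28, 0.61, 0.93 and -0.79. The highest level was that of DMSO heads after 24 h at 29 °C, and the lowest that of EBR heads kept at 22 °C at 8 h. The group of DMSO heads after 24 h at 29 °C was the highest for 143 of the 150 members, and EBR heads at 22 °C and 8 h were the lowest for 125. The shares of all entries with the same highest or lowest group were not taken, so these counts are not particular to the members. The 143 include 4 members that reach the mean of 50 only through that highest group.

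The spread between heads also differed between groups. In the floret the 4 DMSO heads after 24 h at 29 °C lay between 2.08 and 2.26, an SD of 0.0807. The 4 DMSO heads kept at 22 °C until 24 h lay between -0.62 and 1.85, an SD of 1.15. EBR heads kept at 22 °C until 8 h were also close together, between -1.62 and -1.40 (n = 3).

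The rachis had a similar order of groups. The level was highest for DMSO heads after 24 h at 29 °C, at 1.21, and lowest for EBR heads at 22 °C and 8 h, at -1.26, where 2 libraries were at hand. DMSO heads after 24 h at 29 °C were the highest rachis group for 94 members, and EBR heads after 16 h at 29 °C for 35. The shares of all entries were not taken for the rachis either. In bulk tissue, a change in the share of a cell type and a change in RNA per cell cannot be told apart, which holds for all the levels here.

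**Figure D3:**
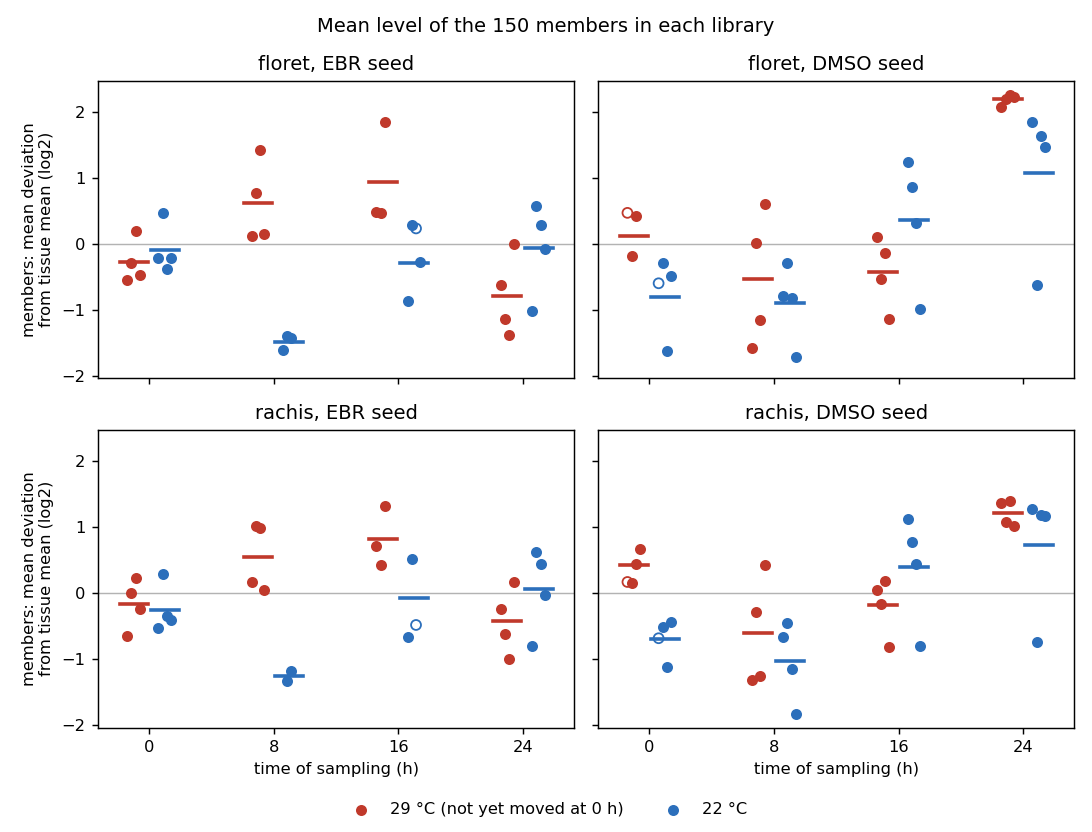
Mean log2 level of the 150 members in each library, as a deviation from the tissue mean, by time of sampling for floret (top) and rachis (bottom), EBR seed (left) and DMSO seed (right). Red points are heads of the 29 °C pots (not yet moved at 0 h) and blue points heads kept at 22 °C, bars are group means, and open circles are libraries of the 3 plants whose tissue labels look exchanged, which the means leave out. DMSO heads after 24 h at 29 °C lie highest in the floret, between 2.08 and 2.26.

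Time at 22 °C was tested across 0, 8, 16 and 24 h, with both seed treatments averaged. In the floret 149 of 150 members were called by limma's moderated F test (Benjamini-Hochberg over all entries), against 31.9% of all entries tested. The counts in this paragraph keep 1 member that reaches the mean of 50 only through DMSO heads kept at 22 °C until 24 h. Those heads are part of this comparison. The difference of 24 h from 0 h was positive for all 150 members, from 0.02 to 4.01 log2 with a median of 0.72, against 0.01 for all entries. This average joins unlike courses. Without the 3 plants the mean level of the members was -0.80 at 0 h and 1.08 at 24 h after DMSO seed. After EBR seed it was -0.09 and -0.06. The seed treatments were not tested apart over time. Without the 3 plants 149 were called as well. In some fits below, including this one, the place of the plant's other tissue on the axis was a covariate (the head axis covariate). This value projects the other tissue's library on the axis and keeps the differences between groups, so it carries the group change itself, and a fit with it asks what the members did beyond that change. With it 13 members were called, 12 of them lower at 24 h, against 1.94% of all entries. Without replicate 3 there were 98 called, 74 higher and 24 lower.

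Pots to be moved and pots that stayed were compared at 0 h, before any heat, to see what the members did without a temperature difference. limma called 0 members in the floret, with 8 at an unadjusted p under 0.05, and the edgeR count was 0 too. The share of all entries called was 0%, with 2287 entries at an unadjusted p under 0.05. The median difference of the members was 0.28 log2 and that of all entries 0.01. It was above 0 for 146 members, and the differences ran from -0.10 to 2.09. Without the 3 plants limma again called 0, with 4 members at an unadjusted p under 0.05, 142 above 0 and a median of 0.27. The head axis covariate gave a median of -0.16 and 20 members above 0, with 0 called and 12 at an unadjusted p under 0.05 (limma).

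Heat after EBR seed asks what 29 °C does in plants that received the brassinosteroid as seeds. At 8 h most members rose in both tissues. In the floret 142 members were called higher and none lower, against 15.5% of all entries called higher, and 147 members had all 29 °C libraries above all 22 °C libraries, as did 22.1% of all entries. Their median log2 fold change was 1.80, against 0.05 for all entries. In the rachis 121 were called higher, against 12.6% of all entries, with a median of 1.61. There 142 members had all 4 heated libraries above both unheated ones, as did 26.2% of all entries. The members called in both tissues numbered 118, all in the same direction, which are 83.1% of the floret calls and 97.5% of the rachis calls. Nearly all members were called in the floret, so most rachis calls would be shared even if the tissues were unrelated. Whether the overlap exceeds that was not tested.

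The largest floret change at 8 h was that of TraesCS3A03G1226500.1, on chromosome 3A. It had 149, 418, 914 and 185 normalized counts at 29 °C, against 2.09, 0.937 and 5.64 at 22 °C. Every heated head exceeded every unheated head, and the log2 fold change was 6.56 (SE 1.39, limma adjusted p = 5.7e-04). TraesCS3D03G0246700.1, on chromosome 3D, had 73.0, 352, 702 and 79.1 at 29 °C, against 1.04, 2.81 and 1.61 at 22 °C. Its groups did not overlap either, and its log2 fold change was 6.16 (SE 1.62, limma adjusted p = 0.0040). Values this near 0 make a log2 fold change depend on the pseudocount. Both calls ended with the head axis covariate, with an adjusted p of up to 0.45 and 0.97, and the second also ended without replicate 3.

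In the rachis at 8 h the largest changes were those of TraesCS4A03G0790300.1 on chromosome 4A and of TraesCS2A03G1118900.1. The first had 77.9, 179, 160 and 17.6 normalized counts at 29 °C, against 2.14 and 0 at 22 °C. The log2 fold change was 5.51 (SE 1.23, limma adjusted p = 0.0021). TraesCS2A03G1118900.1 had 1840, 7483, 13551 and 1671 at 29 °C, against 84.4 and 133 at 22 °C. The log2 fold change was 5.30 (SE 1.30, limma adjusted p = 0.0044). In both, the heated heads were all above the unheated ones and differed among themselves by a wide margin. The adjusted p ran up to 0.24 and 0.43 over the alternatives, and leaving out replicate 3 at 22 °C ended the call of TraesCS4A03G0790300.1, while leaving out replicate 2 ended that of TraesCS2A03G1118900.1.

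These 8 h calls changed with the covariate and with single libraries. The covariate carries the difference between heated and unheated heads, so fewer calls with it are built into the fit. What the change rests on was not tested. With the head axis covariate limma called 1 floret and 0 rachis members (12 and 22 at an unadjusted p under 0.05), against 1.94% and 1.47% of all entries, with medians of 0.15 and 0.26. The same fit without the 3 plants called 4 and 1, against 2.94% and 1.87% of all entries. edgeR was not run with the covariate. The rachis count was 11 without replicate 2 of EBR seed at 22 °C, 23 without its replicate 3 and 70 without replicate 3 at 29 °C, where a lone 22 °C library is assumed to vary like the other groups. Leaving out replicate number 2 in all groups, or number 3, gave 0 rachis calls each (98 and 91 at an unadjusted p under 0.05 with limma). In the floret the count was 86 without replicate 3. Across members the floret fold change had a Pearson r of 0.938 with the floret slope (150 genes, same floret libraries).

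At 16 h after EBR seed the members lay mostly higher at 29 °C, with few calls. In the floret 8 were called higher, against 3.12% of all entries, and the median log2 fold change was 0.80. All heated libraries were above all unheated ones for 46 members and for 8.42% of all entries. These counts keep 1 member that reaches the mean of 50 only through the heated heads of this comparison. In the rachis limma called 0, against 1.32% of all entries in either direction, with 71 members at an unadjusted p under 0.05 and 0 called by edgeR. The rachis median was 0.81, and all heated libraries were above all unheated ones for 41 members and for 9.56% of all entries. In both tissues these comparisons of single libraries keep the plant whose tissue labels look exchanged. Without the 3 plants the floret count was again 8, with a median of 1.00, and the rachis count 0 with a median of 0.68 (limma). edgeR called 24 in the floret, and limma called 0 with only the compared groups fitted (57 at an unadjusted p under 0.05). The head axis covariate turned the floret direction, with 3 members called lower, none higher and a median of -0.14, against 1.36% of all entries called lower. When the 3 plants were left out too, the median was 0.15 with 0 called and 19 at an unadjusted p under 0.05 (limma).

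TraesCS4B03G0592200.1 had 56.1, 37.5 and 1258 normalized counts in heated florets at 16 h, against 3.22, 9.47, 3.39 and 3.93 in unheated ones, where 3.39 is a library whose tissue label looks exchanged. The third heated head stood far above the others, and the groups did not overlap. Its log2 fold change was 4.66 (SE 1.39, limma adjusted p = 0.035), with an adjusted p of up to 0.44 over the alternatives. TraesCS4A03G0897300.1, on chromosome 4A, had 400, 404 and 1584 at 29 °C, against 37.9, 152, 36.5 and 31.4 at 22 °C, where 36.5 comes from the same plant. Its log2 fold change was 3.62 (SE 1.09, limma adjusted p = 0.036). Both calls ended without the 3 plants.

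At 24 h after EBR seed few members were called. In the floret 4 of 150 were called lower and none higher, a share close to the 2.59% of all entries called lower. The fold changes were all negative, with a median of -0.59, against -0.03 for all entries. All heated libraries were below all unheated ones for 5 members and for 6.66% of all entries. Without replicate number 2 or number 3 limma called 0 (8 and 7 at an unadjusted p under 0.05), and each median was -0.30. TraesCS4B03G0133100.1, on chromosome 4B, had 24.6, 17.8, 16.1 and 33.4 normalized counts at 29 °C, against 41.8, 119, 83.8 and 75.8 at 22 °C. All heated heads were below all unheated ones, and the log2 fold change was -1.72 (SE 0.484, limma adjusted p = 0.026). TraesCS4D03G0450400.1, on chromosome 4D, had 474, 452, 425 and 581 at 29 °C, against 586, 912, 840 and 787 at 22 °C. The log2 fold change was -0.68 (SE 0.199, limma adjusted p = 0.032). The first call ended without replicates 2, 3 or 4, and the second without any of the replicate numbers. With only the compared groups fitted 7 members were called, and 6 without the 3 plants. The head axis covariate gave 9 called lower and a median of -0.15, against 3.29% of all entries called lower.

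In the rachis at 24 h after EBR seed 1 member was called lower, against 1.39% of all entries, and the median log2 fold change was -0.37. It was TraesCS5B03G0347200.1 on chromosome 5B, named after its values were seen because it is the only call. It had 563, 552, 485 and 639 normalized counts at 29 °C, against 581, 1099, 969 and 860 at 22 °C. The groups overlapped at 581 and 639, and the log2 fold change was -0.62 (SE 0.179, limma adjusted p = 0.048). Over the alternatives the adjusted p ran from 0.0053 to 0.43.

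Heat after DMSO seed asks the same without the brassinosteroid. At 8 h limma called 0 members in the floret, against 4.38% of all entries in either direction, and 7 members had an unadjusted p under 0.05. edgeR called 1. In the rachis limma called 0, against 1.94% of all entries, with 15 at an unadjusted p under 0.05 and 0 called by edgeR. The median log2 fold changes were 0.21 and 0.32 in floret and rachis. The 4 heated heads of this group were spread widely, from -1.58 to 0.60 in the floret level of the members.

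At 16 h the members lay lower at 29 °C. In the floret the fold change was negative for 149 of 150 members, with a median of -0.60, but 1 member was called, against 2.65% of all entries called lower. It was TraesCS5B03G0347200.1, again named after its values were seen, with 545, 560, 608 and 463 normalized counts at 29 °C, against 1099, 1057, 884 and 575 at 22 °C. Only the lowest unheated head lay within the heated range, and the log2 fold change was -0.69 (SE 0.189, limma adjusted p = 0.023). The call ended without replicate 1, 2 or 3 and with only the compared groups fitted, with an adjusted p of up to 0.21. Under the head axis covariate the floret median was -0.01, and 73 members were above 0.

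In the rachis at 16 h 2 members were called lower, against 0.975% of all entries, with a median of -0.41. TraesCS4A03G0227300.1, on chromosome 4A, had 14.8, 8.20, 6.65 and 4.75 normalized counts at 29 °C, against 97.1, 59.6, 49.98 and 16.2 at 22 °C. The log2 fold change was -2.42 (SE 0.688, limma adjusted p = 0.048). TraesCS4A03G0261100.1, on the same chromosome, had 803, 886, 893 and 676 at 29 °C, against 1453, 1387, 1168 and 921 at 22 °C. The log2 fold change was -0.58 (SE 0.159, limma adjusted p = 0.038). Neither had overlapping groups. The adjusted p ran up to 0.22 and 0.30 over the alternatives, and each replicate left out ended at least the first call. Under the head axis covariate the rachis direction turned, with a median of 0.19 and 111 members above 0. The 1 member called was higher, against 0.975% of all entries called higher.

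At 24 h after DMSO seed 84 of the 150 members rose in the floret and none fell, against 21.0% of all entries called higher. All heated libraries were above all unheated ones for 83 members and for 18.5% of all entries. The median log2 fold change was 1.06, against 0.05 for all entries, and 87 were called without the 3 plants. The heated heads had 45799 to 47131 entries above 0, against 43442 to 45671 in the unheated ones. The part of that difference in the result was not tested. Replicate 2 at 22 °C, the lowest head on the axis, bears on the count: without it 21 members were called and the median was 0.60. Without replicate number 2 in all groups 4 were called, and with only the compared groups fitted 51. With the head axis covariate 69 were called, 58 higher and 11 lower, with a median of 0.42, against 16.3% of all entries called higher and 14.9% lower. Across members the fold change had a Pearson r of 0.258 with the floret slope (150 genes, same floret libraries).

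The choice of members is not fully independent of this group. Of the 150 members, 4 reach the mean of 50 normalized counts only through the DMSO heads after 24 h at 29 °C, so their high values there were a condition of being listed. Among the other 146 members 82 were called higher, with a median of 1.03. By the same check 1 member fell under 50 without the DMSO heads kept at 22 °C until 24 h. Without the EBR heads after 16 h at 29 °C it was 1 member too. The counts for those groups keep these members. TraesCS5B03G1161600.1, on chromosome 5B, is among the 4, with a floret mean of 43.8 without that group. Its values in these heads, in either tissue, are given as a description. It had 621, 1277, 1796 and 1285 normalized counts at 29 °C, against 149, 4.67, 141 and 206 at 22 °C. All heated heads exceeded all unheated ones, also apart from the low value of replicate 2, and the difference of the log2 means was 4.04. TraesCS4A03G0790300.1 had 886, 992, 1603 and 1574 at 29 °C, against 724, 5.60, 361 and 251 at 22 °C. The log2 fold change was 3.08 (SE 1.09, limma adjusted p = 0.021). Its groups did not overlap, but edgeR did not call it, and leaving out replicate 3 or 4 at 29 °C or replicate 2 at 22 °C ended the call, with an adjusted p of up to 0.35 over the alternatives.

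In the rachis at 24 h 24 members were called higher, against 15.8% of all entries, and 3 lower, against 14.5%. The share of members called higher is 16.0%, close to that of all entries. The median was 0.43, and 27 members had all heated above all unheated heads, as did 12.8% of all entries. Without replicate number 2 limma called 5. Among the 146 members that do not need the heated DMSO florets to be listed, 23 were called higher and 3 lower. Of the 27 calls 19 were among the 84 floret calls, all in the same direction. These are 70.4% of the rachis calls and 22.6% of the floret calls. With 84 members called in the floret, many of the 27 would be shared without any link between the tissues. An excess over that was not tested. TraesCS1A03G0938000.1, on chromosome 1A, had 2256, 3825, 4999 and 5034 normalized counts at 29 °C, against 1549, 122, 976 and 771 at 22 °C. The log2 fold change was 2.64 (SE 0.652, limma adjusted p = 0.0017). TraesCS5B03G1161600.1 had 519, 370, 499 and 359 at 29 °C, against 332, 3.87, 127 and 121 at 22 °C. The difference of the log2 means was 2.61, given as a description for the reason stated above. In both, the groups did not overlap. TraesCS1A03G0938000.1 lost its call without replicate number 2 and in the fit of the compared groups alone (adjusted p up to 0.11). The difference in TraesCS5B03G1161600.1 was not called under edgeR, nor when any single library at 29 °C was left out.

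Of the 3 members that fell in the rachis at 24 h, those with the larger changes were TraesCS5D03G0418800.1 on chromosome 5D and TraesCS4D03G0666100.1 on chromosome 4D, named after their values were seen. The first had 847, 646, 628 and 485 normalized counts at 29 °C, against 1123, 742, 1268 and 1126 at 22 °C. The log2 fold change was -0.71 (SE 0.198, limma adjusted p = 0.0052). The second had 1245, 777, 814 and 607 at 29 °C, against 1217, 1205, 1648 and 1402 at 22 °C. The log2 fold change was -0.71 (SE 0.260, limma adjusted p = 0.034). In each, the highest heated head lay above the lowest unheated one. Both calls ended without replicate number 3 and in the fit of the compared groups alone, with an adjusted p of up to 0.080 and 0.17.

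The direction in the rachis at 24 h after DMSO seed depended on the head axis covariate. With it 50 rachis members were called, of which 44 were lower and 6 higher at 29 °C, with a median of -0.40. Of all entries in that fit 10.7% were called lower and 10.1% higher. Leaving out the 3 plants as well gave 62 called, 55 lower and 7 higher, against 12.2% and 10.8% of all entries. With only the compared groups fitted 2 were called, both higher. Leaving out rachis replicate 2 at 22 °C gave 12 calls, 7 higher and 5 lower, and leaving out replicate 4 at 29 °C gave 16.

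**Figure D4:**
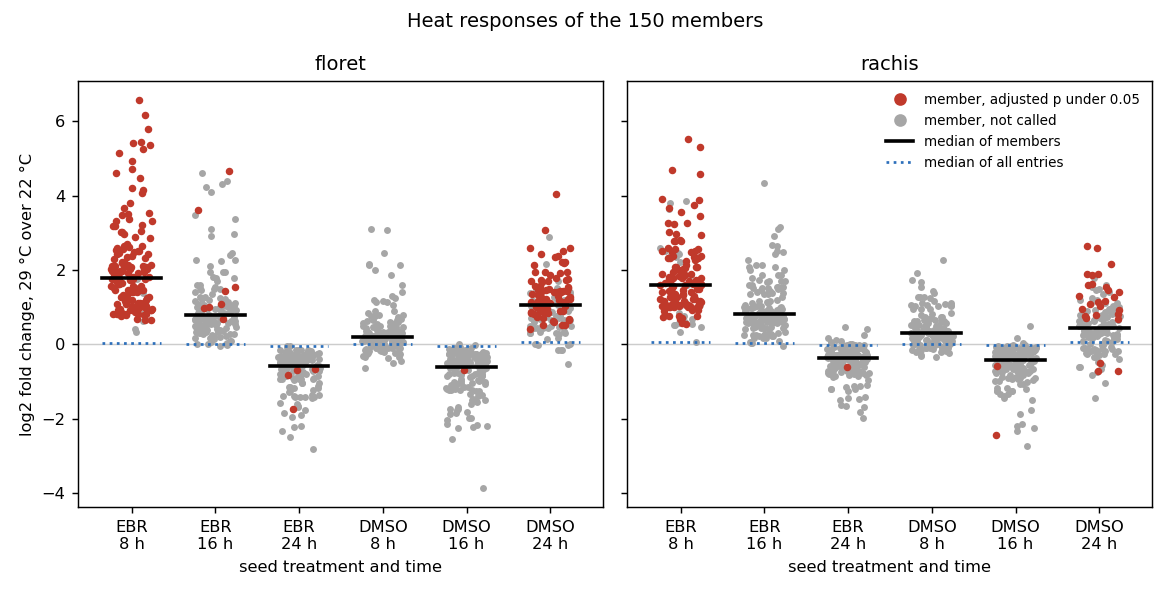
log2 fold change (29 °C over 22 °C, y axis) of each of the 150 members in floret (left) and rachis (right), by seed treatment and time. Red points are members called by limma at an adjusted p under 0.05, grey points are the others, black bars are the medians of the members and dotted bars those of all entries tested. EBR heads at 8 h have medians of 1.80 and 1.61, and DMSO heads at 24 h of 1.06 and 0.43.

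Whether heat acted differently after EBR and DMSO seed was tested as an interaction in the floret. At 8 h limma called 0 members, against 0.0209% of all entries in either direction, with 109 members at an unadjusted p under 0.05 and 0 called by edgeR. The median difference of the log2 fold changes, EBR minus DMSO, was 1.59, it was positive for all 150, and without replicate 4 there were 53 calls. At 24 h 92 members had a lower heat response after EBR seed and none a higher one, against 17.1% of all entries with a lower one. The median difference was -1.71, and 95 members were called without the 3 plants. Without floret replicate 2 of DMSO heads at 22 °C the count was 40, and without replicate number 2 in all groups it was 0 (30 at an unadjusted p under 0.05 with limma; edgeR was not run on that set). No share of all entries is given for these fits. With the head axis covariate 38 were called, of which 37 were lower, against 8.92% of all entries with a lower response. Among the 146 members that do not need the heated DMSO heads to be listed, 88 had a lower response.

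EBR and DMSO heads were also compared directly after 24 h at 29 °C. This comparison shares the heated DMSO heads with the heat comparison after DMSO seed, so the results are not independent. In the floret all 150 members were lower after EBR seed at an adjusted p under 0.05, against 36.4% of all entries called lower. The log2 fold changes ran from -8.03 to -0.69 with a median of -2.86, against -0.08 for all entries, and all EBR heads were below all DMSO heads for 149 members and for 33.8% of all entries. The 146 members that do not need these DMSO heads to be listed were all called too. With the head axis covariate 102 were called, of which 94 were lower and 8 higher, with a median of -0.94 (107, 99 and 8 members without the 3 plants), against 20.9% of all entries called lower and 15.5% higher. Leaving out a replicate number kept 143 to 150.

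TraesCS4B03G0592200.1 had 11.4, 0, 0.948 and 15.8 normalized counts in EBR florets after 24 h at 29 °C, against 2913, 920, 946 and 754 in DMSO florets, a log2 fold change of -8.03 (SE 1.29, limma adjusted p = 5.6e-07). TraesCS4A03G0790300.1 had 7.90, 3.10, 0.948 and 28.1 in EBR florets, against 886, 992, 1603 and 1574 in DMSO florets, a log2 fold change of -7.50 (SE 1.09, limma adjusted p = 7.1e-08). All EBR heads lay far below all DMSO heads in both. TraesCS2A03G1118900.1 had 417, 155, 206 and 661 in EBR florets, against 18817, 21091, 26327 and 26097 in DMSO florets.

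In the rachis 112 members were lower after EBR seed and 1 higher, against 33.1% of all entries called lower and 27.5% called higher. The median was -1.42, and 111 members had all EBR heads below all DMSO heads, as did 31.4% of all entries. Among the 146 members that do not need these DMSO heads to be listed, 108 were lower and 1 higher. All 113 rachis calls were also floret calls, which is 75.3% of the floret calls, and 112 had the same sign. As every member was called in the floret, this overlap is fixed by the floret result. TraesCS5B03G1161600.1 had 9.52, 2.80, 1.95 and 18.5 normalized counts in EBR rachises, against 519, 370, 499 and 359 in DMSO rachises. The difference of the log2 means was -5.96, given as a description because this member needs these DMSO heads to be listed. TraesCS1A03G0938000.1 had 122, 104, 54.6 and 182 in EBR rachises, against 2256, 3825, 4999 and 5034 in DMSO rachises, a log2 fold change of -5.17 (SE 0.652, limma adjusted p = 6.2e-09). Neither pair of groups overlapped. With the head axis covariate the difference in TraesCS5B03G1161600.1 was not called. The adjusted p of TraesCS1A03G0938000.1 ran up to 0.047 over its alternatives.

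The member that was higher in EBR rachises was TraesCS1B03G0670600.1, which also has the shallowest rachis slope. It had 402, 427, 390 and 482 normalized counts after EBR seed, against 361, 252, 384 and 215 after DMSO seed. The groups did not overlap, and the log2 fold change was 0.52 (SE 0.197, limma adjusted p = 0.020), with an adjusted p of up to 0.20 without replicates 2 or 4. In the floret the same gene had 478, 427, 413 and 679 after EBR seed, against 826, 868, 826 and 739 after DMSO seed. With the head axis covariate the direction of the rachis result turned. Of 53 members called, 51 were then higher after EBR seed, with a median of 0.43, against 8.38% of all entries called higher and 7.83% lower. Leaving out the 3 plants as well gave 55 called, 53 of them higher, against 9.39% of all entries called higher.

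Between tissues of the same plant, more members were lower in the floret. Over all plants with both tissues 33 members were higher and 105 lower in the floret than in the rachis, against 37.8% and 36.2% of all entries. The median log2 difference of the members was -0.37, against 0.01 for all entries. Without the 3 plants 34 were higher and 105 lower. TraesCS5A03G1249200.1, on chromosome 5A, had a floret median of 342 normalized counts, from 55.9 to 3938 over 58 libraries, against a rachis median of 1126, from 154 to 17825 over 57 libraries. Its log2 difference was -1.66 (SE 0.107, limma adjusted p = 2.3e-17). TraesCS1A03G0938000.1 had a floret median of 44.99, from 11.4 to 1669, against a rachis median of 150, from 12.0 to 5034, a log2 difference of -1.48 (SE 0.0993, limma adjusted p = 4.9e-17). Both ranges overlap widely over the heads, but the floret was below the rachis of the same plant in each of the 56 plants apart from the 3 named above, as the rule for naming asked. No member that was higher in the floret met that condition.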

How the data were processed

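The authors deposited 1 table of signal values named normalized counts, and 121 of 122 samples have a column in it. Per the submitters' processing notes, FastQC, MultiQC, Trimmomatic 0.36, STAR, featureCounts and DESeq2 were used; their roles and the genome build are not given in the sources used here. In each library 100% of the values above 0 were whole reads, within 0.01, once divided by a single factor. Of 55578 entries read 1 was incomplete and left out; the others lie on chromosomes 1 to 5 and the table ends within 5, so other chromosomes were not analysed here.

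Values were analysed as log2(value + 1) in limma 3.58.1 (R 4.3.3). The model had 1 mean per group, a variance trend with intensity, and a spread common to all groups of a tissue. Entries were tested where 3 or more libraries reached a value of 10. Tests were two-sided, with Benjamini-Hochberg adjustment over all entries tested and calls at an adjusted p under 0.05. Floret minus rachis was fitted on differences per plant. The members and the comparisons were chosen with earlier results of these data known. The members rest on deviations from group means, which differences between group means do not use, but the filter on a mean of 50 does use the group means. In each comparison the named members are up to 2 that rose and 2 that fell, those called without overlap of the groups whose fold change is largest in size, with the exceptions the text states.

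Alternatives were pseudocounts of 0.5 and 5, no filter, TMM factors, the quasi-likelihood test of edgeR 4.0.16 on whole reads, a fit of only the compared groups, a replicate block, leaving out replicate numbers or the 3 plants, and the head axis score of the plant's other tissue as a covariate; others, chosen after seeing the data, are named in the closing part. The covariate is a projection on the axis, not centred on groups, so it carries the differences between groups and shares its heads with the outcome. Replicate numbers did not pair libraries: residuals of libraries with the same number correlated by 0.006 (floret) and 0.012 (rachis) on average. p-values measure the spread between these heads. The fits were also run on simulated data with known changes. Those data had independent entries, the same dispersion in all groups and no shared head axis. They therefore say little about calls on members that move together.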

Additional observations from a re-analysis of the deposited data

Results flagged for a closer look

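Replicate 2 of DMSO heads at 22 °C and 24 h stood apart from the other heads of its group in both tissues. The mean level of the members in its floret was -0.62, against 1.46 to 1.85 in the other heads, and in its rachis -0.75, against 1.17 to 1.28. The gap to the nearest head, over the range of the group, passed Dixon's 95% critical value in these 2 of the 26 groups with 4 libraries. This is a description and no test against chance, since the members were chosen to follow a score on which this floret library is the lowest of 58, and the rachis comes from the same plant. It was kept in all comparisons. Counts without it stand beside heat at 24 h after DMSO seed and the interaction at 24 h. For time at 22 °C, the rachis slope and floret minus rachis, it was left out only together with its whole replicate number.

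The heat response of the members at 24 h in the floret differed between EBR and DMSO seed, by the interaction test, for 92 members. The head above is part of this comparison, and without its floret library the count was 40.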

How the results depend on the processing

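Counts here are members called by limma, unless edgeR is named. Where no share of all entries is printed, a change in a count cannot be read as particular to the members. All comparisons were within 1.5 times of the counts given under a pseudocount of 0.5, TMM factors and without the 3 plants. A pseudocount of 5 gave 1 for heat at 16 h in DMSO rachis. Without the filter on low values there were 4 for heat at 16 h in EBR floret and 0 for heat at 16 h in DMSO rachis and at 24 h in EBR rachis (19 and 22 at an unadjusted p under 0.05). edgeR gave 1, 4 and 24 for heat in DMSO floret at 8 h, DMSO floret at 16 h and EBR floret at 16 h. In these edgeR fits 1483, 2187 and 3260 of the 38320 entries tested were called in either direction. The replicate block gave 4 for heat at 16 h in EBR floret and 1 for heat at 16 h in DMSO rachis, and changed no other count by over 1.5 times; the numbers did not pair the libraries. A fit of the compared groups alone gave 0, 51, 0 and 7 in the floret (DMSO 16 h, DMSO 24 h, EBR 16 h, EBR 24 h) and 0, 2 and 3 in the rachis (DMSO 16 h, DMSO 24 h, EBR 24 h).

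With the head axis score of the other tissue as covariate, heat in the floret gave 3 (DMSO 8 h), 1 (EBR 8 h), 3 (EBR 16 h, lower) and 9 (EBR 24 h), the interaction at 24 h 38 and time 13 with 12 lower. In the same order 5.31%, 1.94%, 2.73%, 5.47%, 14.3% and 1.94% of all entries were called in either direction. In the rachis the covariate gave 2 (DMSO 8 h), 1 (DMSO 16 h, higher), 50 (DMSO 24 h, 44 lower), 0 (EBR 8 h) and 0 (EBR 24 h), and 53 for EBR minus DMSO, 51 of them higher. Here the shares of all entries called were 3.51%, 1.97%, 20.8%, 1.47%, 3.03% and 16.2% in that order. The cause of these changes in the counts was not tested. The alternatives that follow were added after seeing the data. The covariate without the 3 plants gave 9 (DMSO 8 h), 3 (DMSO 16 h, 2 higher), 4 (EBR 8 h), 0 (EBR 16 h), 13 (EBR 24 h), 58 (interaction at 24 h) and 11 (time, 9 lower) in the floret, and 5 (DMSO 8 h), 1 (DMSO 16 h, higher), 62 (DMSO 24 h), 1 (EBR 8 h), 3 (EBR 16 h), 4 (EBR 24 h) and 55 (EBR minus DMSO) in the rachis. Of all entries 8.11%, 5.39%, 2.94%, 2.82%, 8.12%, 18.5% and 2.65% were called in these floret fits. In the rachis fits 4.58%, 2.54%, 23.1%, 1.87%, 2.33%, 3.88% and 17.7% were called. All plants with both tissues, fitted without the covariate, gave 1 for EBR floret at 16 h, 1 for DMSO rachis at 16 h and 0 for EBR rachis at 24 h. The shares of all entries were 3.74%, 2.04% and 2.54%. Without single libraries the counts that moved by over 1.5 times were 21 for heat at 24 h in DMSO floret and 40 for the interaction (replicate 2 at 22 °C in both), 12 and 16 for DMSO rachis at 24 h (replicate 2 at 22 °C, replicate 4 at 29 °C), and 11, 23 and 70 for EBR rachis at 8 h (replicates 2 and 3 at 22 °C, replicate 3 at 29 °C).

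The next ranges leave out each replicate number, and in 5 comparisons also each single library, in turn. Calls among all entries moved in such fits too. Without replicate 1 they went from 1953 to 426 for heat at 16 h in DMSO floret. For heat at 8 h in EBR floret they went from 11564 to 7274, and for heat at 24 h in DMSO floret from 14772 to 15215. The ranges are thus not particular to the members. For heat in the floret they were 0 to 0, 0 to 4 and 4 to 104 after DMSO seed and 86 to 144, 0 to 13 and 0 to 4 after EBR seed, at 8, 16 and 24 h. In the rachis they were 0 to 1, 0 to 1 and 5 to 37 after DMSO seed and 0 to 134, 0 to 7 and 0 to 1 after EBR seed. The interaction gave 0 to 53 at 8 h and 0 to 121 at 24 h, time 98 to 147, EBR minus DMSO 143 to 150 in the floret and 98 to 118 in the rachis, pots at 0 h 0 to 0, the rachis slope 146 to 150 and floret minus rachis 132 to 137. For the named members, 376 of 483 alternative values kept the call, 107 lost it and 0 turned direction, and 22 of 29 named pairs of a member and a comparison lost their call at least once. Groups of 2 to 4 heads and the small number of reads of low members limit the precision of fold changes.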
